A study of Mus musculus with 3 samples.

Results

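The epidermal growth factor receptor gene Egfr and 6 ligand genes, Areg, Ereg, Hbegf, Epgn, Tgfa and Btc, were followed in mouse PC cells profiled by droplet single-cell RNA sequencing. The 7 genes were taken by symbol from the 32287 features of the deposited matrix, and all 7 were found. PC cells come from esophageal organoids of mice with floxed Trp53 alleles, in which Cre delivered with EGFP by an adenovirus removed Trp53, and CRISPR/Cas9 then disrupted Cdkn2a. All cells carry constitutive Cas9 and a transfected barcode library, grew in DMEM with 10% FBS, with the ROCK inhibitor Y-27632 for the first 3 passages and without it afterwards, and were sorted as live and positive for a red fluorescent protein. The labels give the tissue as esophageal cancer and list 3 libraries (gene expression, barcodes and scars) of this 1 culture, with no age, sex, number of mice or number of clones. With 1 sample and no replicate or control culture, no difference below could be tested, and no p-value is given.

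EGFR is a receptor tyrosine kinase of the ErbB family. Its ligands are made as membrane-anchored precursors and are cut free by ADAM proteases, after which the receptor dimerises and signals through RAS and the MAP kinases. Amphiregulin (Areg), epigen (Epgn) and TGF-alpha (Tgfa) bind EGFR alone, while heparin-binding EGF (Hbegf), epiregulin (Ereg) and betacellulin (Btc) also bind ErbB4. In squamous epithelia such as the esophageal lining, basal cells carry most of the receptor and use it to proliferate, and amplification of EGFR is a known lesion of esophageal squamous carcinoma.

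The labels speak of about 20000 cells recovered. The matrix, from a 10x Genomics 3' kit, held 18116 cell barcodes, none repeated, and 14925 of them (82.4%) had at least 500 genes, at least 1000 unique molecular identifiers (UMIs) and at most 20% mitochondrial UMIs. These kept cells had 45443280 UMIs, with a median of 2955 per cell, and the 7 genes took 11064 of them. Levels are given as CPM, UMIs of a gene per 1000000 UMIs of all features in the same set of cells, with exact 95% Poisson intervals in parentheses. Shares of cells have exact Clopper-Pearson 95% intervals. Both cover counting error only, not the spread between cultures. A UMI tags 1 end of a captured molecule, so CPM was not divided by gene length.

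Cells were sorted into gates by marker UMIs. The epithelial gate summed Epcam, Cdh1, Krt5, Krt15, Krt17 and Dsp, and the mesenchymal gate Vim, Col1a1, Col3a1, Col5a1, Aebp1 and Zeb1. Cells with at least 3 UMIs of only 1 list were epithelial-gated (12146 cells, 81.4%) or mesenchymal-gated (1340 cells, 8.98%). Another 287 cells reached 3 UMIs of both lists and are called mixed, and 1152 reached neither and are called ungated. Of all kept cells, 2083 lay within 1 UMI of a cut, between 2 and 4 UMIs of either list. A gate is a range of marker counts, not a proven cell type.

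Markers left out of the gates served as a check of these names. Cldn4, a tight junction gene, stood at 526.5 CPM in epithelial-gated and 13.7 CPM in mesenchymal-gated cells, and Krt14 at 1332 and 134.6 CPM. The matrix genes Sparc (1719 against 160 CPM), Fbn1 (39.0 against 0.584 CPM) and Dcn (22.6 against 0.265 CPM) were higher in mesenchymal-gated cells. Against the name, Col1a2 had 4 UMIs in all mesenchymal-gated cells and Twist1 was at 1.33 CPM there, against 2.15 CPM in epithelial-gated cells. Of the immune markers, Ptprc, Lyz2 and Cd3e had 1 UMI each in all kept cells, Cd79a 4, Csf1r 31 and Cd68 339. Cd68 was seen in 4.18% of mesenchymal-gated and 1.97% of epithelial-gated cells. Of the endothelial markers, Cdh5 had 0 UMIs in all kept cells, Kdr 2, Tek 7 and Pecam1 56.

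Positions are from GENCODE M21 on build GRCm38, the assembly that the mm10 of the submitters' processing notes also names. Egfr (ENSMUSG00000020122) spans 166 kb on chromosome 11, from 16752203 to 16918158 on the plus strand. Tgfa (ENSMUSG00000029999) lies on chromosome 6, from 86195223 to 86275719, plus strand. A further 4 ligands share a 376 kb stretch of chromosome 5: Epgn (ENSMUSG00000035020, 91027464 to 91035215), Ereg (ENSMUSG00000029377, 91074622 to 91093646) and Areg (ENSMUSG00000029378, 91139599 to 91148432) on the plus strand, and Btc (ENSMUSG00000082361, 91357261 to 91402994) on the minus strand.

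Promoter sequences were matched by symbol for 5 of the 7 genes in RefSeq's table for GRCm38.p6. The 250 bases before the start are printed for the receptor and for Areg and Tgfa, since these are the pair of ligands with 6 or fewer UMIs in mesenchymal-gated cells whose levels differed most between the gates. Capitals mark motifs searched on both strands: a cyclic AMP response element (CRE, TGACGTCA), an AP-1 site (TGANTCA), a TEAD site (GGAATG), a GC box (GGGCGG) and a TATA box (TATAAA). The windows are chr11:16751953-16752202 for Egfr, chr5:91139349-91139598 for Areg and chr6:86194972-86195221 for Tgfa, each on the plus strand.
Egfr: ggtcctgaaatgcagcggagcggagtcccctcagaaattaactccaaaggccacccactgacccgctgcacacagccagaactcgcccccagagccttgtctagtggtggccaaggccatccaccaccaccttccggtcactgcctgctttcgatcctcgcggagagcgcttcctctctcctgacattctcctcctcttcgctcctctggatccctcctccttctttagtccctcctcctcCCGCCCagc
Areg: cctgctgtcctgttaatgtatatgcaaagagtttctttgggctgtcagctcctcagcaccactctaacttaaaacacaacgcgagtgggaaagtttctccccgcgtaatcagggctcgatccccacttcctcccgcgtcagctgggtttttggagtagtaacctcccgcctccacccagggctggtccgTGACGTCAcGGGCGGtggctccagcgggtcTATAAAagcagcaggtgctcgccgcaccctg
Tgfa: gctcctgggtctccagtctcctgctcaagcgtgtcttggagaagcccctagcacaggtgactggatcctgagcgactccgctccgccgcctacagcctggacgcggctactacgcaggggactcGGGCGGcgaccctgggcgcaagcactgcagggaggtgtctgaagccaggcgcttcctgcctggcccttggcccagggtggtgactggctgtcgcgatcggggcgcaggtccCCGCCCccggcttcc

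The Areg window held a CRE from -61 to -54, a GC box from -52 to -47 and a TATA box from -31 to -26, counted back from the start in RefSeq's table. The CRE occurs in 1.55% of the 32851 promoter windows of the same length, the GC box in 32.7% and the TATA box in 12.4%. Tgfa had GC boxes from -126 to -121 and from -15 to -10 and none of the other motifs, and Egfr had a GC box from -9 to -4. Epgn had a TATA box from -86 to -81 of RefSeq's start, which lies inside the gene as GENCODE draws it, and Btc had none of the 5 motifs. AP-1 and TEAD letters, which 6.75% and 12.6% of all windows hold, were in none of these windows. The marked motifs do not overlap, and a match shows letters, not binding.

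Egfr was the most abundant of the 7 genes, and Hbegf the most abundant ligand. In kept cells Egfr stood at 131.8 CPM (128.5 to 135.2) from 5991 UMIs, which placed it 1224th of 20908 detected genes. Hbegf followed with 56.9 CPM (54.8 to 59.2), then Tgfa with 20.025 CPM (18.7 to 21.4) and Ereg with 17.4 CPM (16.2 to 18.6). Areg, at 7.88 CPM (7.08 to 8.74), and Btc, at 7.48 CPM (6.71 to 8.32), had overlapping intervals and were not ordered beyond counting error. Epgn was lowest at 1.94 CPM (1.55 to 2.39), from 88 UMIs. Tgfa exceeded Ereg by 1.15-fold (1.05 to 1.27), and, Areg and Btc aside, each other neighbouring pair in the order differed by at least 2.21-fold.

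Few cells showed more than 1 molecule of any of these genes. Egfr was seen in 30.6% of the kept cells (29.9% to 31.3%), with 5 UMIs in the richest cell. Hbegf was found in 13.5% of cells, with up to 11 UMIs in a cell, and Tgfa in 5.85% with up to 2. To compare shares at equal depth, each cell was thinned at random to 1500 UMIs, which left out 1644 shallower cells and kept 13281. The thinned shares were 17.1% for Egfr, 7.53% for Hbegf, 3.06% for Tgfa, 2.49% for Ereg, 1.11% for Areg and for Btc, and 0.271% for Epgn. The culture held no cell type known to lack these genes, so how far these shares stand above free RNA cannot be read from them.

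**Figure D1:**
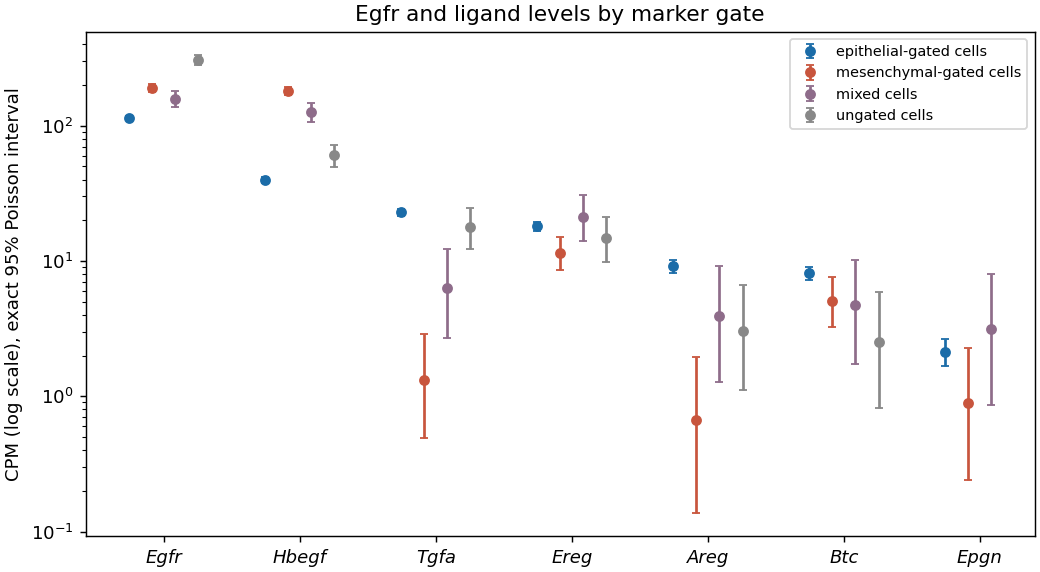
Level of each gene (CPM, log axis) in the 4 gates, with points for pooled UMIs and bars for exact 95% Poisson intervals. Hbegf is highest in mesenchymal-gated cells (180.0 CPM), Tgfa and Areg are lowest there (1.33 and 0.664 CPM), and Egfr is highest in ungated cells (307.1 CPM). Epgn in ungated cells, with 0 UMIs, has no point.

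The makeup of the ligands differed sharply between the epithelial and mesenchymal gates, while the receptor differed less. Hbegf stood at 39.7 CPM (37.7 to 41.7) in epithelial-gated cells and at 180.0 CPM (167.8 to 192.8) in mesenchymal-gated cells, 4.54-fold higher (4.16 to 4.94). Tgfa went the other way, with 22.9 CPM (21.3 to 24.4) from 861 UMIs in epithelial-gated cells and 1.33 CPM (0.488 to 2.89) from 6 UMIs in mesenchymal-gated cells, a ratio of 17.2 (7.87 to 47.0). Areg had 344 UMIs, 9.13 CPM (8.19 to 10.1), in epithelial-gated cells and 3 UMIs, 0.664 CPM (0.137 to 1.94), in mesenchymal-gated cells, a ratio of 13.7 (4.66 to 67.0). Gating on the check lists instead put the Tgfa ratio at 7.16 and the Areg ratio at 31.9, and a gate of 5 UMIs of one list and 0 of the other put the Areg ratio at 5.27.

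Egfr itself was at 114.8 CPM (111.4 to 118.3) in epithelial-gated cells and at 189.8 CPM (177.3 to 202.9) in mesenchymal-gated cells, 1.65-fold higher in the latter (1.53 to 1.78). Ereg was 1.57-fold lower in mesenchymal-gated cells (interval 1.18 to 2.13), with 11.5 against 18.1 CPM. Btc stood at 5.09 CPM (3.23 to 7.64) there and 8.12 CPM (7.24 to 9.08) in epithelial-gated cells, 1.59-fold lower (1.04 to 2.55). Epgn had 4 UMIs in mesenchymal-gated and 80 in epithelial-gated cells, 0.886 CPM (0.241 to 2.27) against 2.12 CPM (1.68 to 2.64), with overlapping intervals.

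A gene was called between 2 sets of cells when its level was at least 2-fold higher in one and reached 10 CPM there. By this rule of size Hbegf was called higher in mesenchymal-gated cells, where 11.3% of 9126 eligible genes were called, and Tgfa higher in epithelial-gated cells, where 11.2% were. The other 2 eligible members, Egfr and Ereg, were not called. Areg, Btc and Epgn did not reach 10 CPM in either gate and so could not be called, Areg by a small margin. The median log2 ratio of mesenchymal-gated to epithelial-gated level was 0.04 over the 4 eligible members and -0.01 over all eligible genes.

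In mesenchymal-gated cells Hbegf supplied 90.2% (88.1% to 92.1%) of the 901 ligand UMIs. In epithelial-gated cells the 3768 ligand UMIs were spread over Hbegf (39.7%), Tgfa (22.9%), Ereg (18.1%), Areg (9.13%), Btc (8.12%) and Epgn (2.12%). The summed ligand level was 100.003 CPM (96.8 to 103.2) in epithelial-gated and 199.5 CPM (186.7 to 213.0) in mesenchymal-gated cells. Egfr was higher there too, and the number of ligand UMIs per Egfr UMI was 0.871 (0.833 to 0.910) and 1.05 (0.956 to 1.16), intervals that lay apart.

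Free RNA from epithelial cells can put UMIs into mesenchymal-gated droplets. Epithelial genes outside the gate gauge this only in part, since the cells may transcribe them. Cldn4 was seen in 63.7% of epithelial-gated and 3.36% of mesenchymal-gated cells, and Lama3 in 38.5% and 2.84%, at median depths of 2990 and 3304 UMIs. Krt14, Perp and Sfn were seen in far more mesenchymal-gated cells, 34.1%, 31.9% and 36.2% of them, and Itgb4 in 4.55%. Tgfa was seen in 6.80% and 0.448% and Areg in 2.52% and 0.224%, so the few Tgfa and Areg UMIs of mesenchymal-gated cells are not read as expression. In the other direction Fbn1 was found in 11.4% of mesenchymal-gated and 0.165% of epithelial-gated cells, and Sparc in 96.3% and 27.0%. Col5a2 (5.90% and 0.156%), Dcn (3.73% and 0.0659%) and Col1a2 (0.299% and 0.0165%) were rarer, and Twist1 was in 0.373% and 0.667%. Hbegf was found in 39.6% and 10.5% in the same order. How much of the Hbegf in epithelial-gated cells was free RNA was not tested.

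Mixed cells, with markers of both lists, had levels of Egfr, Hbegf, Tgfa and Areg between those of the gates, but not of Ereg, Epgn and Btc. Hbegf stood at 125.6 CPM (106.9 to 146.6) and Egfr at 157.7 CPM (136.7 to 181.1) in these 287 cells, and Tgfa at 6.28 CPM (2.71 to 12.4) from 8 UMIs. The intervals of Egfr and Tgfa overlapped those of mesenchymal-gated cells. Areg was at 3.92 CPM (1.27 to 9.16) from 5 UMIs. Ereg (21.2 CPM, 14.0 to 30.8) and Epgn (3.14 CPM, 0.855 to 8.04, from 4 UMIs) were above both gates. Btc (4.71 CPM, 1.73 to 10.2, from 6 UMIs) was below both. The intervals of Areg, Ereg, Epgn and Btc overlapped those of both gates. The median depth of mixed cells was 4312 UMIs, above both gates, and doublets were not removed. The part of doublets in these levels was not tested.

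The same shift was graded over the number of mesenchymal marker UMIs in a cell. Cells were grouped across gates, with ungated cells among those of 0 to 2 marker UMIs and mixed cells among those of 3 or more. The part of a changing blend of cells in the levels below was not tested. Among the 12554 kept cells with 0 such UMIs, Hbegf stood at 39.2 CPM (37.2 to 41.3), and among the 544 cells with 1 at 45.7 CPM (36.3 to 56.7). It was at 112.9 CPM (88.4 to 142.2) in the 200 cells with 2, at 137.3 CPM (122.5 to 153.3) with 3 to 5, at 172.7 CPM (157.0 to 189.6) with 6 to 10 and at 229.8 CPM (200.2 to 262.5) in the 227 cells with 11 or more. Hbegf was thus higher in each successive group. The intervals of neighbouring groups overlapped between 0 and 1 marker UMIs and between 2 and 3 to 5, and lay apart at the other steps. Tgfa went from 23.1 CPM (21.6 to 24.7) with 0 marker UMIs to 3.50 CPM (1.51 to 6.89) with 3 to 5, and had 0 UMIs in the last group, with an interval up to 3.91 CPM. Egfr showed no further gradient once 3 marker UMIs were reached: it was at 123.8, 133.0 and 136.4 CPM with 0, 1 and 2 marker UMIs, and at 193.2, 172.3 and 185.3 CPM in the 3 groups above.

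**Figure D2:**
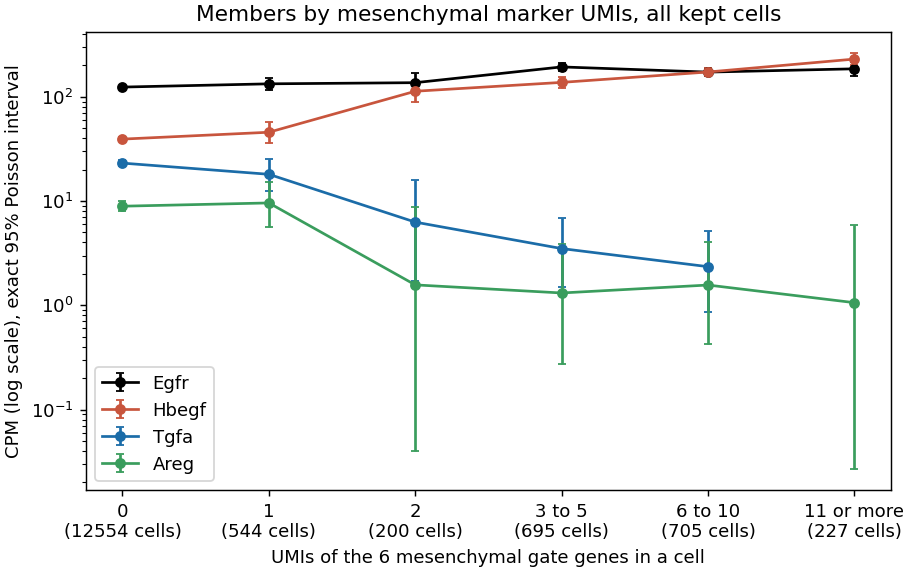
Level (CPM, log axis) of Egfr, Hbegf, Tgfa and Areg in kept cells grouped by their UMIs of the 6 mesenchymal gate genes, with exact 95% Poisson intervals. Hbegf goes from 39.2 to 229.8 CPM and Tgfa from 23.1 CPM to 0 UMIs in the last group (no point), while Egfr stays between 123.8 and 193.2 CPM.

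Within epithelial-gated cells, 14 marker lists defined states such as division, basal identity or secretion. Cells were called list-high by their thinned UMIs of the list, with the lowest whole-number cut that at most 25% of the 11179 thinned epithelial-gated cells reached. The cut was 1 UMI for the G2M, replication and Ltf and Lcn2 lists, so list-high there can rest on 1 molecule. Of the 2488 G2M-high cells, 706 had just 1. The lists share cells, and none holds a member. Egfr ratios of list-high to other cells ran from 0.858 to 1.25, Tgfa from 0.864 to 1.16, Ereg from 0.816 to 1.33, Btc from 0.641 to 1.42, Hbegf from 0.782 to 1.67 and Areg from 0.680 to 2.12. Epgn, the rarest, ran from 0.361 to 1.55.

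Areg, a mitogen of epithelial cells, was higher in cells high for division genes. It stood at 15.5 CPM (13.0 to 18.2) in the 2488 cells high for the G2M list (Mki67, Top2a and 6 other mitosis genes) and at 7.30 CPM (6.32 to 8.39) in the 8691 others, a ratio of 2.12 (1.70 to 2.64). Areg was the only member called by the rule of size over these 14 lists, in a comparison where 5.11% of 8705 eligible genes were called higher. The call was lost under 3 of 4 alternatives, with ratios of 1.66 to 1.90. With the other lists few genes of the matrix were called either. Those called higher ran from 10 of 8607 (nuclear RNA) to 281 of 8621 (DNA replication). Those called lower ran from 0 of 8541 (MAP kinase output) to 195 of 8607 (nuclear RNA). The lack of further calls is thus no trait of the members. In cells high for DNA replication genes Areg was at 13.9 CPM (11.4 to 16.9), against 8.18 CPM (7.18 to 9.29) in the rest. Median depth also differed, with 3538 UMIs in G2M-high and 3014 in other cells. In the 3 depth groups of epithelial-gated cells from 1500 UMIs up, Areg was at 8.51 CPM (6.39 to 11.1), 8.30 CPM (6.75 to 10.1) and 10.3 CPM (8.92 to 11.9), with overlapping intervals. Ereg, its neighbour on chromosome 5, was 1.28-fold higher (1.08 to 1.51) in G2M-high cells, and Tgfa 1.02-fold (0.872 to 1.20). Egfr was lower in G2M-high cells, 103.5 CPM (97.0 to 110.3) against 116.9 CPM (112.9 to 121.0).

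Hbegf had its highest ratios in other states. Its largest ratio was with the MAP kinase output list, 13 genes that respond to ERK signalling. Hbegf was at 59.4 CPM (53.6 to 65.6) in the 2018 list-high cells and 35.6 CPM (33.5 to 37.8) in the others, a ratio of 1.67 (1.48 to 1.88). Phlda1 (458.4 CPM) and Ier3 (253.4 CPM) made up most of the list's 912.2 CPM in epithelial-gated cells, where Dusp6 was at 14.1 CPM. List-high thus mostly reflects these 2 genes. Cells high for Ltf and Lcn2, genes of secreted antimicrobial proteins, had 60.3 CPM (53.6 to 67.5) against 36.6 CPM (34.5 to 38.8). Cells high for immediate early genes such as Fos and Egr1 had 56.9 CPM (51.4 to 62.9) against 35.9 CPM (33.8 to 38.2). Its intervals lay apart and higher for 8 of the 14 lists, also including the chemokine, squamous differentiation, Ly6d, YAP target and hypoxia lists. Only in Wfdc18-high cells did they lie apart and lower, at 32.8 CPM (29.1 to 36.9) against 41.9 CPM (39.6 to 44.4). For the G2M and interferon lists they overlapped, though the ratio intervals, 0.768 to 0.986 and 1.01 to 1.36, left out 1. None of these ratios reached 2, nor did those of most eligible genes.

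Egfr was somewhat higher in cells high for YAP targets, genes that respond to cell tension. It stood at 136.7 CPM (127.4 to 146.5) in cells high for this list, with genes such as Ccn1 and Ankrd1, and at 109.1 CPM (105.4 to 112.8) in the rest. In cells high for basal genes such as Krt14 and Trp63 it was at 115.4 CPM (107.5 to 123.9) against 113.1 CPM (109.3 to 117.0), with overlapping intervals. Egfr intervals lay apart and higher for 2 lists, YAP targets and nuclear RNA (Malat1 and Neat1). They lay apart and lower for 4: G2M (ratio 0.885), DNA replication (0.858), Ltf and Lcn2 (0.867) and Wfdc18 (0.864). Ereg had intervals apart and higher for the G2M, chemokine and YAP target lists, reaching 22.8 CPM (19.1 to 27.0) in cells high for YAP targets against 17.2 CPM (15.7 to 18.7). Btc was at 10.3 CPM (8.40 to 12.6) in chemokine-high cells against 7.27 CPM (6.29 to 8.36), and at 5.64 CPM (4.16 to 7.48) in Wfdc18-high cells against 8.81 CPM (7.74 to 9.98). Tgfa and Epgn had overlapping intervals for all 14 lists. A ratio's interval can leave out 1 where these overlap. For Btc it did with the basal (1.04 to 1.82), squamous differentiation (1.05 to 1.87) and Ly6d lists (1.08 to 1.86). With MAP kinase output it did for Btc (1.001 to 1.77) and Ereg (1.04 to 1.52). For Ereg it also did with Wfdc18 (0.669 to 0.990), and for Egfr with Ly6d (0.848 to 0.995) and immediate early genes (1.003 to 1.17). For Epgn it did with interferon genes (0.0958 to 0.964, 4 UMIs in high cells).

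**Figure D3:**
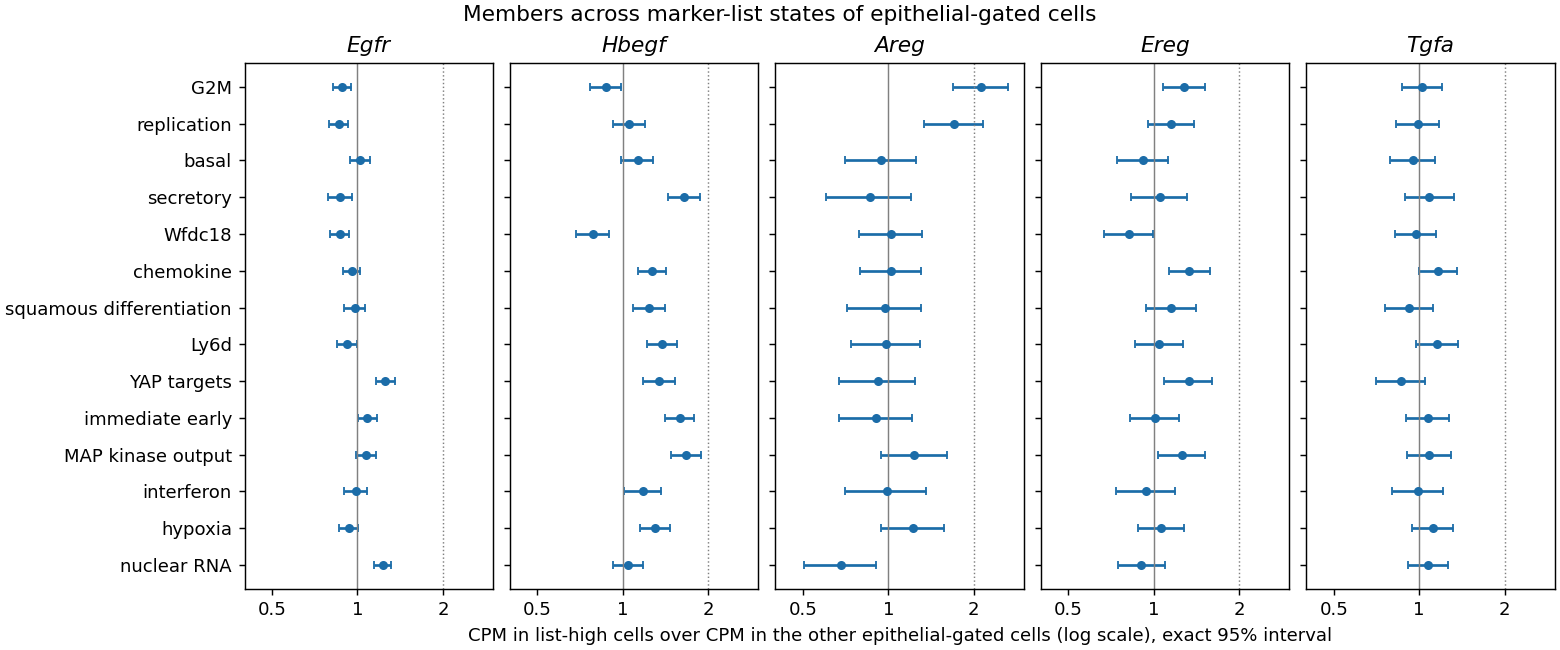
Ratio of level in list-high to level in the other epithelial-gated cells (log axis) for Egfr and 4 ligands over 14 marker lists, with exact 95% intervals and lines at 1 and 2. Areg stands out in G2M-high cells (2.12), Hbegf in MAP kinase output-high cells (1.67), and Tgfa stays between 0.864 and 1.16.

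Egfr also moved with the nuclear transcripts Malat1 and Neat1. In epithelial-gated cells it was at 98.9 CPM (93.5 to 104.5) where these took under 1% of UMIs, at 112.8 CPM (106.9 to 119.0) from 1% to 2%, at 130.1 CPM (123.8 to 136.7) from 2% to 5% and at 164.7 CPM (138.7 to 194.2) from 5%. Areg went the other way in these cells, from 13.1 CPM (11.2 to 15.3) under 1% to 7.69 CPM (6.20 to 9.42) from 1% to 2% and 6.49 CPM (5.13 to 8.10) from 2% to 5%. Egfr was also at 154.0 CPM (132.9 to 177.4) in epithelial-gated cells of fewer than 1500 UMIs and at 99.5 CPM (94.9 to 104.2) in those of 3500 or more. Of the 1152 ungated cells, 553 had at least 5% Malat1 and Neat1 UMIs, with a median depth of 1179 UMIs. Egfr reached 533.0 CPM (481.1 to 589.0) in these, while Hbegf stood at 18.0 CPM (9.58 to 30.8). Over all ungated cells Egfr was at 307.1 CPM (283.1 to 332.5), with a median mitochondrial share of 6.52% against 2.68% in epithelial-gated cells. In mesenchymal-gated cells Egfr went from 161.7 CPM (144.1 to 180.8) under 1% to 226.4 CPM (194.7 to 261.8) from 2% to 5%, and Hbegf from 203.2 CPM (183.4 to 224.4) to 123.1 CPM (100.1 to 149.9). The part of RNA quality in these Egfr levels was not tested. Malat1 and Neat1 together stood at 17512 CPM in epithelial-gated and 13109 CPM in mesenchymal-gated cells. Without cells of 5% or more the ratio of Egfr between the gates was 1.67. That cut took out only 322 epithelial-gated and 6 mesenchymal-gated cells, so the ratio could move little. Whether RNA quality bears on the Egfr difference between the gates was not tested.

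Within mesenchymal-gated cells the members were compared for division and for contractile genes. Hbegf was 1.30-fold higher (1.11 to 1.51) in the 308 cells high for Acta2, Tagln, Myl9 and Cnn1, with 217.5 against 167.6 CPM. Egfr was lower in these cells, 162.2 CPM (139.3 to 187.8) against 199.1 CPM (184.4 to 214.7), with intervals that overlap slightly. In the 122 G2M-high cells Egfr stood at 172.0 CPM and Hbegf at 154.6 CPM, with intervals that overlap those of the other cells.

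The ligands and the receptor were found in the same cells about as often as the product of their shares gives. Of 11179 thinned epithelial-gated cells, 1752 had an Egfr UMI and 1515 a UMI of at least 1 ligand. Both were found in 232 cells, where the product of the shares gives 237.4, a ratio of 0.977 (0.855 to 1.11). By ligand the ratio was 0.965 (0.779 to 1.18) for Hbegf with 93 cells, 1.07 (0.831 to 1.37) for Tgfa with 66, 0.841 (0.598 to 1.15) for Ereg with 39, 1.14 (0.737 to 1.68) for Areg with 25, 1.01 (0.624 to 1.54) for Btc with 21 and 1.16 (0.426 to 2.53) for Epgn with 6. All 6 intervals include 1. Without thinning, which leaves depth unequal between cells, the ratio for any ligand was 1.10 (1.03 to 1.17). Spearman's rho over these cells, which share 1 library and 1 depth, ran from -0.0118 (Ereg) to 0.00819 (Areg).

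The mean number of Egfr UMIs gave the same picture. Cells with a Hbegf UMI had 0.925 times (0.749 to 1.13) the Egfr UMIs of cells without, those with a Tgfa UMI 1.15 times (0.903 to 1.43) and those with an Areg UMI 1.42 times (0.987 to 1.98). These intervals leave room for moderate differences in either direction, which were not detectable at this depth. In mesenchymal-gated cells, 69 of 1330 thinned cells had both Egfr and Hbegf, a ratio to the product of shares of 0.966 (0.751 to 1.22). The other ligands had 4 or fewer such cells there.

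Among the ligands themselves, the 15 pairs in epithelial-gated cells were found together in at most 18 cells each. The highest ratio was that of Areg and Ereg, the neighbours on chromosome 5, found together in 8 cells where the product of shares gives 3.71, a ratio of 2.16 with an interval of 0.932 to 4.25. At the main thinning, none of the 21 pairs of the 7 genes had an interval that left out 1 in epithelial-gated cells. There 7 pairs had 3 or fewer cells with both. Ratios of ligand pairs moved widely over the settings run. They ran from 1.21 to 3.04 for Areg with Ereg, 0.607 to 5.12 for Areg with Btc and 0.260 to 1.58 for Hbegf with Btc. In mesenchymal-gated cells 18 of the 21 pairs had 3 or fewer such cells, too few to show a difference. A single ligand gene was found in 12.8% of thinned epithelial-gated cells (12.2% to 13.4%) and 2 or more in 0.787% (0.632% to 0.969%). In mesenchymal-gated cells these shares were 23.2% (20.9% to 25.5%) and 0.752% (0.361% to 1.38%).

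**Figure D4:**
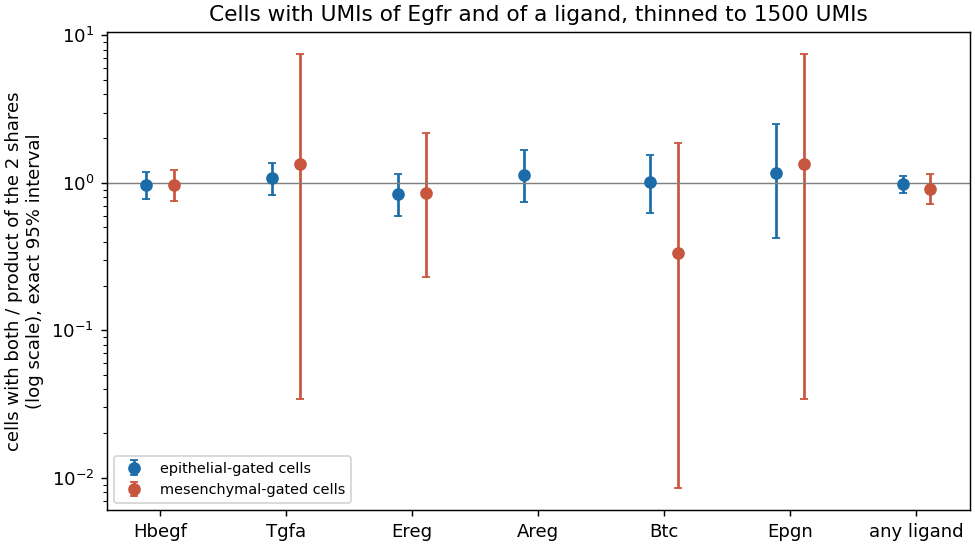
Number of thinned cells with UMIs of Egfr and of a ligand, divided by the number that the product of the 2 shares gives (log axis), with exact 95% intervals, in both gates. Every interval includes 1, and for any ligand the ratio is 0.977 in epithelial-gated and 0.913 in mesenchymal-gated cells. Areg in mesenchymal-gated cells, with 0 such cells, has no point.

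The genes most like a member over single cells were weakly so. Among 4438 genes found in at least 5% of thinned epithelial-gated cells, the highest Pearson r with Egfr (of log of 1 plus UMIs) belonged to Gm42418 (0.09), Pde4d (0.06), Malat1 (0.06), Ctnnd2 (0.06) and Ctnnd1 (0.06). For Hbegf they were Ier3 (0.06), Fam162a (0.05), Ptgs2 (0.05), Cystm1 (0.04) and AA467197 (0.04). At such values in sparse counts the order is no finding: with another random thinning, 1 of the 5 genes for Egfr and 0 of the 5 for Hbegf were named again. The remaining members were in too few cells for this comparison.

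Of the other receptors of the family, Erbb3 and Erbb4 differed more between the gates than Egfr did, beyond counting error. Erbb3, a receptor with a weak kinase that signals as a partner, stood at 17.9 CPM in epithelial-gated cells and at 0.664 CPM from 3 UMIs in mesenchymal-gated cells, a mesenchymal to epithelial ratio of 0.037 (0.00762 to 0.109). Erbb2, the partner with no known ligand, was at 21.5 and 10.2 CPM, 2.11-fold lower in mesenchymal-gated cells (1.57 to 2.91). Erbb4, which binds neuregulins and also Hbegf, Ereg and Btc, was at 0.876 CPM in epithelial-gated and 41.8 CPM in mesenchymal-gated cells, 47.8-fold higher (32.9 to 71.4). Of the 5 other ligands listed, only Nrg1 (neuregulin 1) reached 10 CPM, with 83.5 CPM in epithelial-gated and 459.0 CPM in mesenchymal-gated cells, a ratio of 5.49 (5.19 to 5.81). Egf, named after its values were seen, had 39 UMIs in epithelial-gated and 2 in mesenchymal-gated cells.

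Proteases and cofactors that release the ligands were present in both gates. Adam17, the main sheddase of Areg, Hbegf, Ereg and Tgfa, was at 52.3 CPM in epithelial-gated and 55.1 CPM in mesenchymal-gated cells, a ratio of 1.06 (0.921 to 1.20). Rhbdf2, which encodes the ADAM17 cofactor iRhom2 and is mutated in tylosis with esophageal cancer, was at 14.0 and 14.4 CPM. Frmd8, which stabilises the iRhoms, was higher in epithelial-gated cells (30.0 against 10.8 CPM), as was Adam8 (23.4 against 2.21 CPM). Adam12 (181.6 against 88.7 CPM) and Adam15 (21.5 against 7.83 CPM) were higher in mesenchymal-gated cells.

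Feedback inhibitors of the receptor went both ways. Errfi1, which encodes the kinase inhibitor MIG6, was at 32.2 CPM in epithelial-gated and 13.5 CPM in mesenchymal-gated cells. The ubiquitin ligase gene Cblc had 486 UMIs (12.9 CPM) in epithelial-gated cells and 1 UMI in mesenchymal-gated cells, a ratio of 0.017 (0.000434 to 0.0961). Lrig1, whose product promotes turnover of the receptor, was higher in mesenchymal-gated cells (52.0 against 16.4 CPM), and the phosphatase gene Ptprj was lower there (34.8 against 83.3 CPM). Among adaptors Shc1 was higher in mesenchymal-gated cells (41.6 against 15.8 CPM), and Eps8 (52.0 against 17.7 CPM) and Gab1 (47.5 against 23.0 CPM) in epithelial-gated cells.

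Most of the core of the cascade differed by less than the fold of 2, as did most eligible genes of the matrix. By the same rule 11.3% of all eligible genes were called higher in mesenchymal-gated and 11.2% in epithelial-gated cells. Of 10 RAS and MAP kinase genes, all of which reached 10 CPM, Hras alone was called, with 123.7 CPM in epithelial-gated and 48.5 CPM in mesenchymal-gated cells. Of the MAP kinase output genes, 9 of 15 reached 10 CPM: Dusp4 was higher in mesenchymal-gated cells (45.2 against 17.5 CPM) and Egr1 in epithelial-gated cells (108.0 against 26.8 CPM). Over all 60 pathway genes, 49 reached 10 CPM, of which 8 were called higher in mesenchymal-gated and 11 in epithelial-gated cells. These 19 calls pool both directions. By direction, the 8 of 49 compare with 1031 of 9126 eligible genes (11.3%), and the 11 of 49 with 1023 of 9126 (11.2%). The median log2 ratio of the 49 was 0.06 against -0.01 over all eligible genes. A minimum of 50 CPM left 7 calls. The share over all genes was not worked out at that minimum, so this count says nothing about the pathway.

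**Figure D5:**
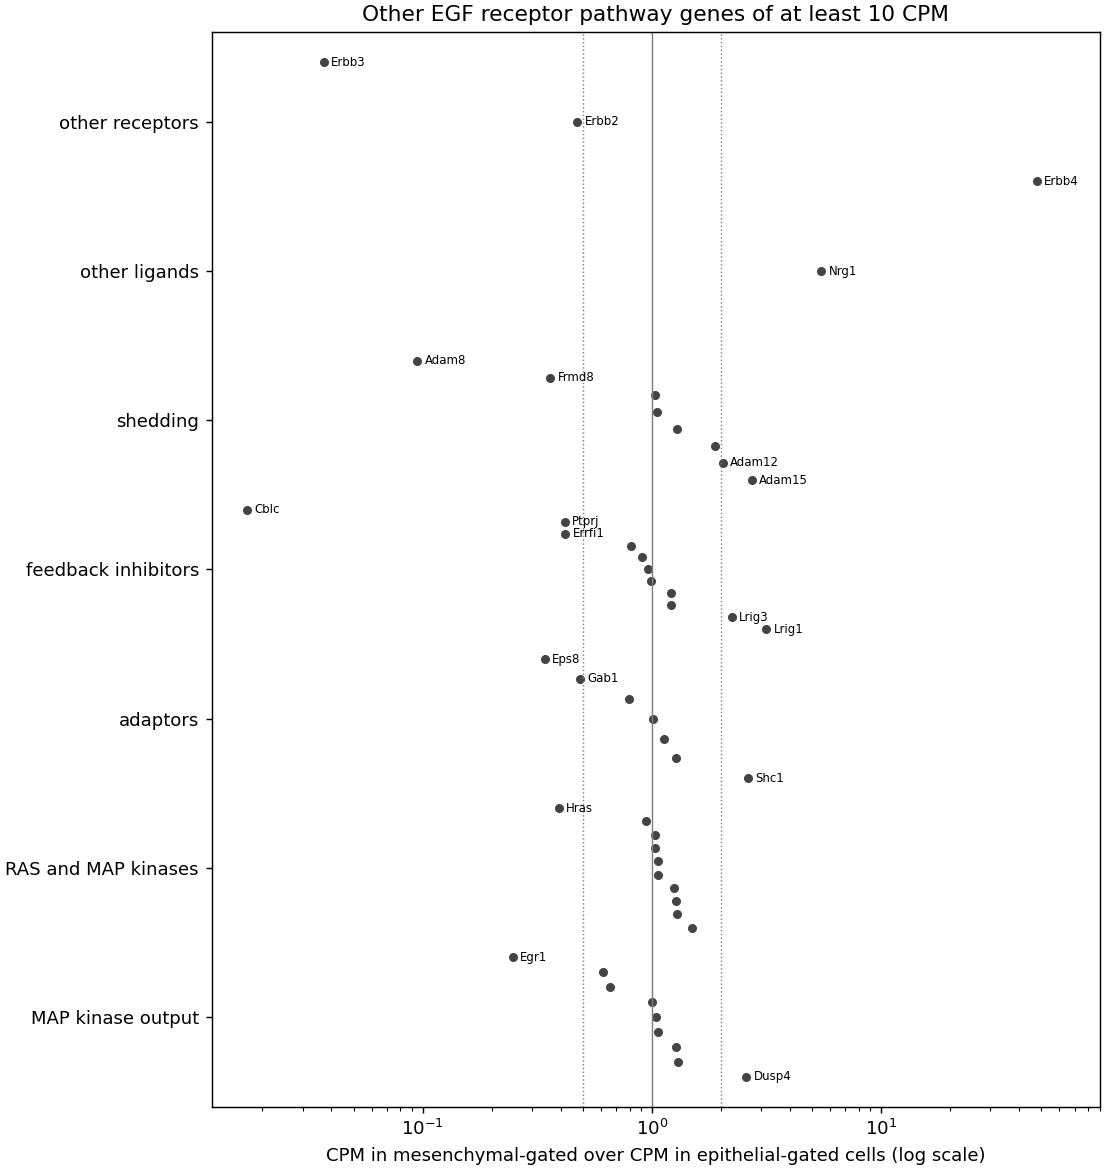
Ratio of level in mesenchymal-gated to level in epithelial-gated cells (log axis) for the 49 pathway genes of at least 10 CPM, by role and, within a role, in order of the ratio, with dotted lines at the fold of 2 and names for the called genes. Erbb4 (47.8) and Nrg1 (5.49) lie far to the right, Erbb3 (0.037) and Cblc (0.017) far to the left, and most kinases lie between the lines.

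Protein-coding neighbours within 100 kb were compared between the gates as well. Mthfd2l, which lies 6.10 kb before Epgn, was at 112.9 CPM (109.6 to 116.4) in epithelial-gated and 45.6 CPM (39.6 to 52.3) in mesenchymal-gated cells, lower in the latter as were Epgn, Ereg and Areg by their values. Near Tgfa, Snrpg stood at 277.3 and 252.2 CPM, Fam136a at 39.5 and 17.7 CPM and Add2 at 7.03 and 8.41 CPM in the same order. Hbegf (ENSMUSG00000024486) lies on chromosome 18, from 36504927 to 36515805 on the minus strand, and near it Pfdn1 was at 122.9 and 220.7 CPM and Ankhd1 at 62.6 and 74.8 CPM. Slc4a9, also near it, had 20 and 0 UMIs. Near Egfr, Fbxo48 had 18 and 1 UMIs and Plek 1 and 0.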

How the data were processed

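The deposited matrix holds UMI counts, whole numbers per gene and cell barcode, which the authors made with Cell Ranger 8.0.1 per the file headers. The build is mm10 per the submitters' processing notes. Labels and headers do not state the annotation or how barcodes were chosen, and the lowest barcode had 500 UMIs. The matrix names none of the 3 libraries and was treated as 1 pooled sample. Counts were not normalized beyond CPM. Doublets were not called or removed. Beside the 14 state lists described, 1 further marker list is not reported here. Gates, list-high cuts, thinning to 1500 UMIs and the calling rule (fold of 2, minimum of 10 CPM) are as described above, run in Python 3.11.15 with numpy 2.4.6 and scipy 1.17.1. Ratios have exact conditional binomial intervals. The calling rule, the interval and the co-detection ratio were tested on simulated data. GENCODE M21 held 32158 of the 32287 feature IDs and all 7 members. The members and lists were chosen with earlier results of these data known. Named genes are the members, up to 4 called pathway genes per role, Errfi1, Adam17, Rhbdf2, Erbb2 and Erbb3, the 5 genes most like each member found in at least 5% of cells, and neighbours within 100 kb. Alternatives to the filters, gates, cuts, thinning and rule were run. Leaving out cells rich in Malat1 and Neat1, a gate of 3 UMIs with 0 of the other list, and the strict gate for pathway genes were added after seeing the data.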

Additional observations from a re-analysis of the deposited data

How the results depend on the processing

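Over the 9 alternatives run on the gates, Hbegf was 4.202 to 5.42 times as high in mesenchymal-gated as in epithelial-gated cells. Egfr was 1.60 to 1.83 times as high, in the same direction. In epithelial-gated cells Tgfa was 7.16 to 23.8 times and Areg 5.27 to 31.9 times as high. The number of members called was 2 each time, without a share over all genes for these alternatives. The level of Egfr, 131.8 CPM (128.5 to 135.2), was 121.9 CPM with at least 1000 genes and 2000 UMIs, 127.6 CPM at no more than 10% mitochondrial UMIs, 136.8 CPM without the 5% of cells with the most UMIs, 146.7 CPM over all barcodes, 135.7 CPM without GFP and Scar in the total and 124.5 CPM without cells rich in Malat1 and Neat1. All 6 values lie outside its interval, and the intervals themselves lay apart only for the first, the fourth and the last. With at least 5 UMIs of one list and 0 of the other, Egfr was 1.79-fold and Hbegf 5.42-fold higher in mesenchymal-gated cells. With 3 and 0 UMIs Egfr was 1.83-fold higher. Gating on the check lists gave a Tgfa ratio of 7.16. With a list-high cut at 10% of cells the Areg ratio for G2M was 1.66 and the Hbegf ratio for MAP kinase output 1.98. The Areg ratio was also under 2 at no more than 10% mitochondrial UMIs (1.90) and without the deepest cells (1.83), but 2.20 under the stricter minimum. Pathway calls numbered 7 at a minimum of 50 CPM, again without a share over all genes. For Egfr and any ligand, the ratio to the product of shares was 1.10 (1.03 to 1.17) without thinning and 0.926 to 1.07 under the others. The Egfr ratio for immediate early genes, 1.08, reversed to 0.988 under the stricter minimum and to 0.976 without the deepest cells, and the cause was not tested. No paired analysis was possible because there is 1 sample.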
